A study of Mus musculus with 5 samples.

Results

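The genes described here are 10 members of the Hippo pathway: the coactivator genes Yap1 and Wwtr1, the DNA-binding factor genes Tead1, Tead2, Tead3 and Tead4, the kinase genes Lats1 and Lats2, and the target genes Ccn1 and Ccn2. They were taken by name from 21779 protein-coding genes in the RefSeq annotation of GRCm38.p6, which corresponds to mm10. For each, the CTCF peaks whose midpoint lay in the gene body or within 100 kb of either end were collected, which gave 55 distinct peaks of the 22756 deposited, with no peak shared between members. CTCF, a zinc finger protein of chromatin loop anchors and insulators, had been mapped by chromatin immunoprecipitation and sequencing in mouse NIH3T3 fibroblasts. All cells carried H2B-mCherry, the rtTA3G transactivator and a CDX2 transgene under the TRE3G promoter, so that doxycycline induces CDX2. CTCF libraries came from cells given doxycycline for 6 h (2 libraries) or without it (2 libraries), and a single input library came from cells without it. The dose is labelled as 500 ng/µL. The 1 deposited list merges both conditions and holds intervals only, so no peak has a height, a condition or a replicate. The effect of CDX2 induction was not tested, the depth is unknown, and every value below is a position or a count with no replicate error. Whether the cells were 1 clone is not stated in the labels, and a peak list gives no expression by which to check the cell type.

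In the Hippo pathway, the LATS kinases phosphorylate YAP, the product of Yap1, and TAZ, the product of Wwtr1, which keeps both coactivators out of the nucleus. When they are not phosphorylated, YAP and TAZ enter the nucleus and bind TEAD proteins on DNA. Genes activated in this way in fibroblasts include Ccn1 and Ccn2, which encode secreted matrix-associated proteins also known as CYR61 and CTGF. In the early mouse embryo, TEAD4 with YAP activates Cdx2 in the trophectoderm, the gene whose product was induced in these cells.

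CTCF peaks were spread very unevenly over the 10 genes. Tead2 and Tead3 had 14 peaks each, Tead4 had 8, Wwtr1 had 5, Ccn2 had 4, and Tead1, Lats2 and Ccn1 had 3 each, while Yap1 had 1 and Lats1 had none. Tead2 and Tead3 together held 28 of the 55 peaks (50.9%), and the 4 TEAD genes held 39 (70.9%). This order depended on the 100 kb flank. With 50 kb each side, Tead3 led with 9 peaks, followed by Tead4 with 6 and Tead2 with 5, and Tead2 and Tead3 held 14 of 38 (36.8%). With 10 kb each side, Tead4 and Lats2 had 3 each, Tead1, Tead2 and Tead3 had 2 each, and Tead2 and Tead3 held 4 of 14 (28.6%). The 4 TEAD genes held 60.5% and 64.3% at those flanks. The median was 3.5 peaks per member, against a median of 3 and quartiles of 1 and 6 over all protein-coding genes. At least 1 peak lay in the window of 9 of the 10 members, and 81.8% of all protein-coding genes had one. A share of 3.44% of protein-coding genes had 14 peaks or more, 29.5% had at most 1, and 18.2% had none. By this count within 100 kb the 10 genes as a set were near the background, and the spread was between members.

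**Figure D1:**
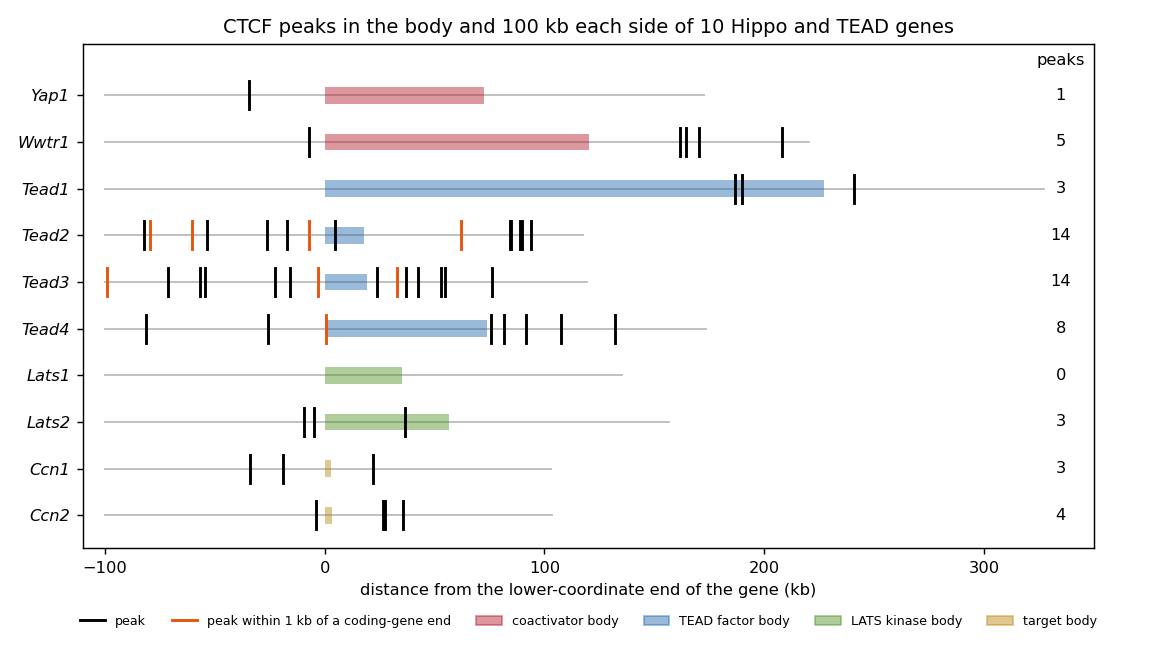
CTCF peaks (vertical lines) along each of the 10 genes, by distance in kb from the lower-coordinate end of the gene. The coloured bar is the gene body, the grey line spans 100 kb beyond each end, and the number at the right is the count of peaks. Tead2 and Tead3 show 14 peaks each and Lats1 none. Orange lines mark peaks within 1 kb of the end of a protein-coding gene.

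Most of the peaks lay outside the genes themselves. A peak in the body was found at 4 of 10 members (Tead1 with 2, and Tead2, Tead4 and Lats2 with 1 each), and 29.5% of all protein-coding genes had a body peak. Only Tead4 had a peak within 1 kb of one of its ends, and 12% of protein-coding genes did. Of the 50 peaks outside the bodies, 9 lay within 10 kb of the member, 24 between 10 and 50 kb and 17 between 50 and 100 kb away. The nearest outside peak was under 10 kb away for 6 of 10 members (Wwtr1, Tead2, Tead3, Tead4, Lats2 and Ccn2), against 34.3% of protein-coding genes. The median distance to it was 7.16 kb for the members and 20.4 kb for all protein-coding genes.

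**Figure D2:**
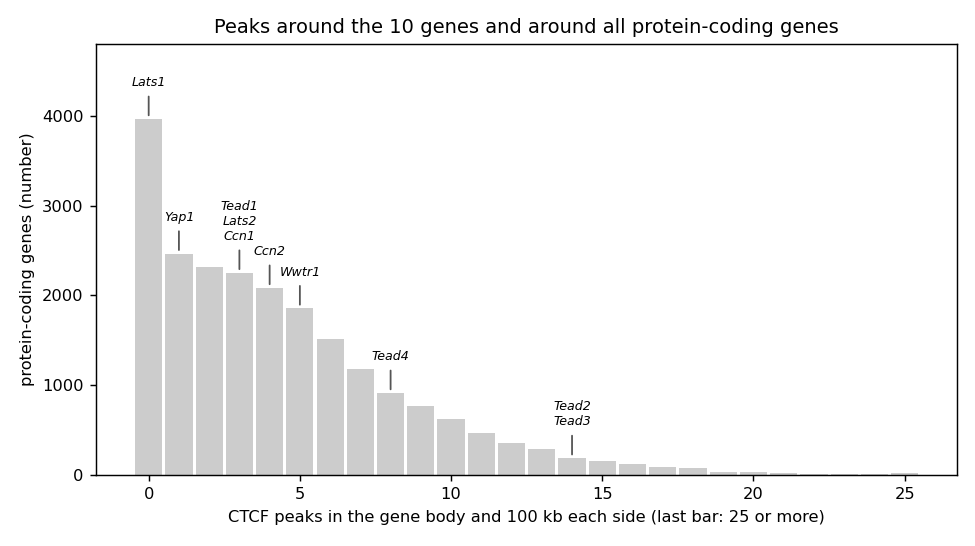
Number of protein-coding genes (grey bars) by their count of CTCF peaks in the body and 100 kb each side, with the 10 members named above the bar they fall in. Tead2 and Tead3, at 14 peaks, stand in the thin upper tail, while Lats1 falls in the bar of genes with none.

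The peaks themselves resembled the rest of the list in width. Their median width was 268 bp, with a range of 172 to 612 bp, against a median of 262 bp and quartiles of 217 and 317 bp for all peaks. By midpoint, 11 of the 55 (20.0%) lay within 1 kb of an end of any annotated gene, against 16.5% of all peaks. For ends of protein-coding genes the count was 8 (14.5%), against 10.9% of all peaks. In the body of some annotated gene lay 31 peaks (56.4%, against 58.1%), and 24 lay outside genes.

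No CTCF peak reached the promoter of a member for which RefSeq gives a sequence. Promoter windows, from 250 bases before to 50 after a transcript's start, were matched for 7 of the 10 members (11 windows, some of them overlapping; Tead1, Tead4 and Ccn2 had no entry). A peak touched 0 of the 11, and 3.59% of the 32851 windows in the table. The letters GGAATG, the core that TEAD proteins recognise, were searched on both strands, where the other strand reads CATTCC. They occurred in a window of 5 of the 7 genes (Yap1, Wwtr1, Tead3, Lats2 and Ccn1), and 16.6% of the 27025 genes in the table had them in a window. By window the share was 7 of 11 members' windows and 14.7% of all. A match of these letters is a description of the sequence and says nothing about TEAD binding in these cells.

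The 250 bases before the start are given for a coactivator, a TEAD factor and a target gene, to show where those letters stand in promoters that no CTCF peak reached. Capitals mark GGAATG or CATTCC, and all are read 5′ to 3′ on the gene's strand from RefSeq, GRCm38.p6. The windows are chr3:57575911-57576160 on the minus strand for Wwtr1, chr17:28350806-28351055 on the minus strand for Tead3 and chr3:145649986-145650235 on the minus strand for Ccn1. In Wwtr1 the match begins at base -136 from the start, in Tead3 at -182 and in Ccn1, as CATTCC, at -103. A second, overlapping window of Tead3, not printed here, held 3 further matches, beginning at -123, -114 and 3 from its own start.
Wwtr1: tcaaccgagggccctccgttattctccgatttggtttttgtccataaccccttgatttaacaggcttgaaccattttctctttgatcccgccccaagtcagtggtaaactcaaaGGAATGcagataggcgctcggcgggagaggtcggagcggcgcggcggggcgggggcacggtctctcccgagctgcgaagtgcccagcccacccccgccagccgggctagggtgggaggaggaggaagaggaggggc
Tead3: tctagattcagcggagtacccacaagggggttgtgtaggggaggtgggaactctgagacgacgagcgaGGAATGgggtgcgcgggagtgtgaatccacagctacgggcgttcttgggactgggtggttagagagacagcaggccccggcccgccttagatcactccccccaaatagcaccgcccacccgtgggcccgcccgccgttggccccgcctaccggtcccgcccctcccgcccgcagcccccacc
Ccn1: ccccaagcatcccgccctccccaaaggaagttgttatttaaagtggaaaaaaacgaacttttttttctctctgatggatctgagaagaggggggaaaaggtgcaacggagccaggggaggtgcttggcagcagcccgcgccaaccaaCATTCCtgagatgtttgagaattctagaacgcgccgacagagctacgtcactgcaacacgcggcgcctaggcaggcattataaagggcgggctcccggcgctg

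Peaks did lie on promoters of 3 other genes in the windows, of which only Rpl10a is the nearest coding neighbour of a member. Of the 55 peaks, 1 touched a promoter window of Flt3l and 1 that of Ppard, a nuclear receptor gene, while 1 touched both windows of Rpl10a, a ribosomal protein gene. The 250 bases before the start are shown for Ppard, at chr17:28232504-28232753 on the plus strand, and for Rpl10a, at chr17:28328221-28328470 on the plus strand, with the bases inside the peak in capitals (216 for Ppard and 186 for Rpl10a). These are the promoters at the outermost and the innermost peak on the lower-coordinate side of Tead3.
Ppard: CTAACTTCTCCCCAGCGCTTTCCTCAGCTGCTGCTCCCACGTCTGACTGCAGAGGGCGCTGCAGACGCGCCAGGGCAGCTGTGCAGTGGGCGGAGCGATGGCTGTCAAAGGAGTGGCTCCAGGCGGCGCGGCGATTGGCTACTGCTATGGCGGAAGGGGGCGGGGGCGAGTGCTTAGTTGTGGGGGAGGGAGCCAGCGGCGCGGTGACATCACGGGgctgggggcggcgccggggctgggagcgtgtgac
Rpl10a: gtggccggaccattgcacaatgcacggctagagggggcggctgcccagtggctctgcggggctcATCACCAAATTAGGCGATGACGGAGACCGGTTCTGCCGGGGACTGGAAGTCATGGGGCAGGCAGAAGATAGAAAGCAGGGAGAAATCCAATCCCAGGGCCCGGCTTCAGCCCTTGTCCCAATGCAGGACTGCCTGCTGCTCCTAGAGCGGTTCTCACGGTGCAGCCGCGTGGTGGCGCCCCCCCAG

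A CTCF-like string, CC, any 3 bases, AG, any base and GGGC, was searched on both strands and was in none of the members' windows and in none of the windows of Flt3l, Ppard and Rpl10a. It was in 3.21% of all promoter windows and in 31.8% of the 849 windows that held the midpoint of a peak. Most windows holding a midpoint thus lacked the string, so its absence does not show that a window has no CTCF site. The Flt3l window held a near match inside the peak, which differed from the string in a single letter. It had T in place of the G that follows the single free base, and a form allowing T there was not searched. A stricter form with G for the single free base, whose matches the first string includes, was in 1.28% and 19.6%. A shorter string, AGNGGGCGC, was searched after the Ppard sequence had been read. It occurs there once, beginning at base -200 inside the peak, and in 2.88% of all windows and 29.9% of those holding a midpoint. For comparison, GGAATG was in 13.3% of the windows holding a midpoint.

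The coactivator genes differed in their surroundings. Yap1 (chromosome 9, 7931999 to 8004638, minus strand) had a single peak of 246 bp at 7897589 to 7897834, which lay 34.3 kb past the end of the gene in the direction of Birc3, an apoptosis inhibitor gene. On the other side, beyond the start, the next peak was 696 kb away. The 803 kb between those 2 peaks held no CTCF peak in any part and contained Yap1 together with Cfap300, Cep126 and the ion channel gene Trpc6. A span as long or longer lay around 16.2% of protein-coding genes. Among the 22734 pairs of neighbouring peaks in the list, 505 (2.22%) were at least that far apart.

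Wwtr1 (chromosome 3, 57455644 to 57575910, minus strand) was bounded more closely. A peak of 280 bp lay 6.96 kb past its end, between it and the tetraspanin-like gene Tm4sf4. Before its start lay 4 peaks, at 41.2, 44.0, 49.9 and 88.0 kb. The 3 nearer ones fell within the long non-coding RNA gene Gm26671, and the one at 41.2 kb was 410 bp from an end of Mir6377. There was no peak in the 120 kb of the body, and the 2 peaks on either side of the gene were 168 kb apart, close to the median of 160 kb over protein-coding genes. The density in the window was 1.56 peaks per 100 kb for Wwtr1 and 0.367 for Yap1, against a median of 1.42 over protein-coding genes.

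Tead1 (chromosome 7, 112679356 to 112906784), the longest member at 227 kb, carried its peaks on one side. A pair lay in the body, 246 and 468 bp wide, at 82.0% and 83.5% of the length from the lower-coordinate end. The third, 201 bp wide, lay 13.2 kb beyond the higher end, between Tead1 and Rassf10. The first 187 kb of the body and the 100 kb before it were free of peaks, and the next peak below the gene was 108 kb away. Parva, the nearest coding neighbour below, ended 87.7 kb from Tead1 with no peak between them. The density was 0.702 per 100 kb, and 68.0% of protein-coding genes were as dense or denser.

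Tead2 (chromosome 7, 45215792 to 45233468, plus strand) lay in a crowded stretch, with 14 other protein-coding genes in its window, the most of any member. Its own peak, 209 bp wide at 45220387 to 45220595, lay in the body 4.70 kb after the start. Before the start were 7 peaks, at 7.37, 17.1, 26.1, 53.4, 60.6, 79.3 and 82.2 kb. The nearest was in the body of Dkkl1, 900 bp from its end, and the peak at 79.3 kb lay 2 bp from an end of Flt3l, which encodes a blood cell growth factor.

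Beyond the end of Tead2 the first 44.1 kb were free of peaks, a stretch that holds Cd37 and Slc6a16. Then came 6 peaks between 44.1 and 76.2 kb. The first was 255 bp from an end of Slc6a21, the next pair lay in the non-coding gene Gm39006 with a gap of 322 bp between them, and the last 3 lay in Trpm4, a cation channel gene. The first pair in Trpm4 was separated by 341 bp. The density in the window was 6.43 peaks per 100 kb, and 2.71% of protein-coding genes were as dense or denser.

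Tead3 (chromosome 17, 28331671 to 28350805, minus strand) had the same number of peaks as Tead2 within 100 kb but differed in their arrangement. Within 50 kb it had 9 against 5, and counting only peaks of median width or wider it had 10 against 7. None of its 14 peaks lay in the body, and 7 lay on each side. The closest, 307 bp wide at 28328285 to 28328591, lay 3.23 kb past the end of Tead3 and 33 bp from the start of Rpl10a, the promoter printed above. On the side of the start, the closest was 4.77 kb away inside Tulp1, a photoreceptor gene, and was 188 bp wide. The 2 peaks enclosed 27.1 kb, the shortest span of the 10 members, and 5.67% of protein-coding genes had a span as short or shorter.

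The other peaks past the end of Tead3 lay in Fance, a DNA repair gene (15.7 kb away), between genes (22.7 kb), in Ppard (54.6, 56.7 and 71.3 kb) and at the promoter of Ppard (99.1 kb). On the other side, a peak at 13.7 kb was 712 bp from an end of Tulp1, and another at 56.8 kb lay in Fkbp5, a glucocorticoid-responsive chaperone gene. Between Tulp1 and Fkbp5 were 4 more peaks, at 17.9, 23.2, 33.7 and 35.6 kb, of which the first, at 612 bp, was the widest of all 55. The density was 6.39 peaks per 100 kb, and 2.87% of protein-coding genes were as dense or denser. The window of Tead3 held 5 other protein-coding genes against 14 around Tead2.

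Tead4 (chromosome 6, 128227143 to 128300813) had CTCF nearer to both of its ends than any other member. A peak of 526 bp at 128227654 to 128228179 lay inside the gene, 773 bp from its lower-coordinate end, and another of 248 bp lay 1.92 kb beyond the higher end. Past the higher end were 4 further peaks, at 7.74, 17.7, 33.8 and 58.4 kb. Of these, the third lay in Tulp3 and the last in Rhno1. Below the gene were a peak at 25.6 kb, by the pseudogene Gm4691, and another at 81.1 kb, by Tspan9. The density was 2.92 per 100 kb, and 22.5% of protein-coding genes were as dense or denser. The strand of Tead4 is not given in the table used, so these ends are not called start or end.

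Lats1 (chromosome 10, 7681200 to 7716461, plus strand) had no CTCF peak in its body or within 100 kb. The nearest lay 348 kb before its start and 155 kb past its end. The 538 kb between them held 8 other protein-coding genes: Ulbp1, Lrp11, Pcmt1, Nup43, Katna1, Ginm1, Ppil4 and Zc3h12d. The window of Lats1 held 6 other coding genes, and a link between gene count and peak count was not tested. A span as long or longer lay around 22.2% of protein-coding genes, and 872 pairs of neighbouring peaks (3.84%) were as far apart or farther. Because the list has no depth, an unlisted region may have lacked reads.

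Lats2 (chromosome 14, 57689662 to 57746212, minus strand), its paralog, had 3 peaks. One of 325 bp lay in the body, 19.8 kb after the start. A pair lay past the end of the gene, at 4.87 and 9.50 kb, 285 and 415 bp wide, between Lats2 and the nuclear export gene Xpo4. On the side of the start no peak lay within 100 kb, and the next was 289 kb away, beyond Gm52140, which overlaps the start of Lats2, and Sap18, Ska3, Mrpl57, Zdhhc20 and Micu2. Both LATS genes had a peak-free stretch of over 100 kb on at least one side. Yap1 (696 kb) and Tead1 (108 kb) had such a stretch as well, and the share over all protein-coding genes is not given here. Lats2 differed from Lats1 in the peaks at its other end and in its body.

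**Figure D3:**
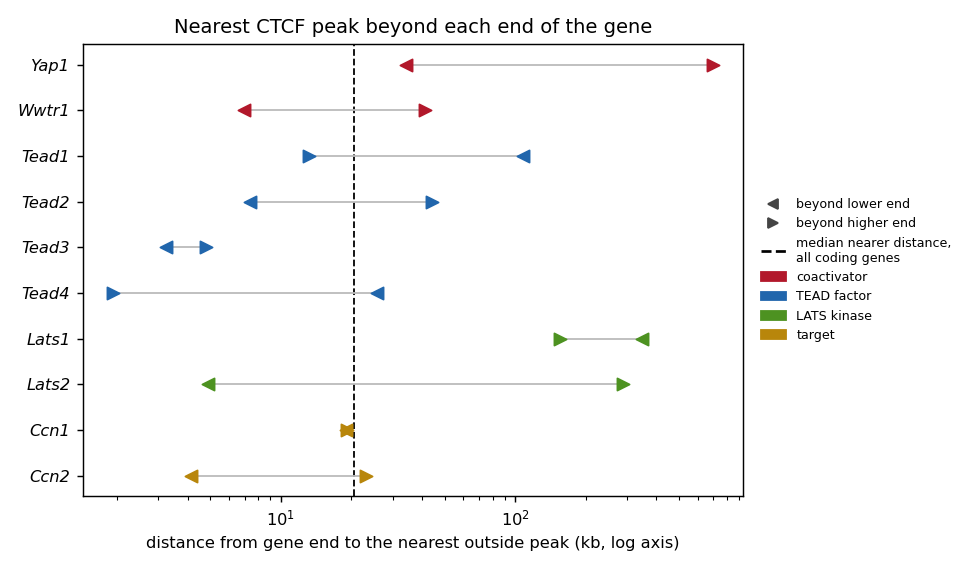
Distance in kb (log axis) from each end of the gene to the nearest CTCF peak outside it, with triangles pointing left for the lower-coordinate end and right for the higher. Colours give the role, and the dashed line is the median over all protein-coding genes of the nearer of the 2 distances, 20.4 kb. Tead3 has both peaks under 5 kb, Lats1 has both beyond 100 kb, and Yap1 and Lats2 have the nearest peak on the higher side at 696 and 289 kb.

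The target genes Ccn1 and Ccn2 are short (3.02 and 3.24 kb) and each was the only protein-coding gene between its nearest peaks. Non-coding genes reached into both spans, Gm17501 at Ccn1 and Gm15270 at Ccn2. The trait was not particular to the target genes. The spans around Wwtr1, Tead1 and Tead4 also held no other complete protein-coding gene, though Parva reached into that of Tead1. The share over all protein-coding genes is not given here. Ccn1 (chromosome 3, 145646971 to 145649985, minus strand) had a peak 19.1 kb before its start, 193 bp wide and inside the non-coding gene Gm17501, and peaks 18.9 and 34.1 kb past its end, 257 and 231 bp wide, between it and Znhit6. The 2 nearest peaks were almost the same distance from the gene and 41.0 kb apart. A span as short or shorter was found for 11.8% of protein-coding genes. All 3 peaks of Ccn1 were narrower than the median of the list.

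Ccn2 (chromosome 10, 24595442 to 24598683) had a peak of 241 bp 4.13 kb below its lower-coordinate end, within the long non-coding gene Gm15270. Beyond the higher end lay peaks at 23.1, 24.1 and 32.2 kb, all before Enpp1, an ectonucleotidase gene that begins 39.2 kb away. The first pair of these had a gap of 696 bp between them. The 2 nearest peaks on either side of Ccn2 were 30.45 kb apart, and 7.14% of protein-coding genes had a span as short or shorter. Ccn2 had 4 peaks with 1 other coding gene in its window, the fewest neighbours of any member, and a density of 1.97 per 100 kb.

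Between a member and its nearest coding neighbours, peaks lay on both sides for 4 of 10 genes (Wwtr1, Tead4, Ccn1 and Ccn2), against 14.2% of all protein-coding genes. They lay on 1 side for Yap1, Tead1 and Lats2. Tead2, Tead3 and Lats1 had none on either side, as did 47.6% of protein-coding genes. Distances to the neighbours differed widely: Tead2 is 0.164 kb from Cd37 and Tead3 is 0.638 kb from Rpl10a. Ccn2, by contrast, is 293 kb from Moxd1. A link between this distance and the presence of a peak was not tested.

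Over a wider neighbourhood, Tead2 and Tead3 again had most peaks and Yap1 and Lats1 fewest. In the body plus 500 kb each side, Tead2 had 44 peaks (43.2 per Mb), Tead3 had 36 (35.3 per Mb) and Tead4 had 34 (31.7 per Mb). Their chromosomes carried 10.1, 10.7 and 7.92 peaks per Mb over the span from first to last gene or peak. Chromosome rates take in stretches far from genes and are no gene-centred background. The count at 500 kb was not made for all protein-coding genes, whose median density at 100 kb was 1.42 peaks per 100 kb. At the low end, Yap1 and Lats1 had 4 peaks each (3.73 and 3.86 per Mb), on chromosomes with 9.21 and 8.09 per Mb. Lats2 had 5 (4.73 per Mb), near the 5.20 per Mb of chromosome 14, and Wwtr1 had 6 (5.36 per Mb). Tead1 had 18, and Ccn1 and Ccn2 had 12 each.

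Other genes of the pathway, listed by role, are given for context. Of 64 names, 63 matched a gene, and 56 of these (88.9%) had at least 1 peak inside or up to 100 kb away, with a median of 5 peaks. A body peak was present at 29 (46.0%) and a peak within 1 kb of an end at 9 (14.3%), against the 81.8%, 29.5% and 12% of all protein-coding genes. Of the 4 Vgll genes, which encode TEAD cofactors, 1 had peaks: Vgll4 had 12, 5 of them in its body. Vgll1, Vgll2 and Vgll3 had none, as did 18.2% of all protein-coding genes. These 3 lay in long spans without a listed peak: 20219 kb for Vgll1, on chromosome X, 1513 kb for Vgll2 and 1425 kb for Vgll3. Whether such spans lacked reads is unknown. Trp73, listed with the Vgll genes, encodes a p53-family factor that binds YAP and is no TEAD cofactor, and it had 6. The group of MST core kinases and adaptors also took in related kinase genes outside the core. Among these, Stk38 had 16, Map4k4 and Stk38l had 6 each, and Stk25 had 4. Of the core genes, Stk3 and Mob1b had 2 each, Sav1 had 4, and Stk4 and Mob1a had 5 each. All 9 genes of the group had at least 2.

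Upstream membrane regulators and scaffolds had a median of 7 peaks (9 genes), led by Taok3 with 12 and Rassf1 with 11. Genes for proteins that bind YAP and TAZ or govern their turnover had a median of 6 (13 genes), led by the LIM protein gene Ajuba with 13 and the ubiquitin ligase subunit gene Fbxw11 with 10. Upstream cadherin and polarity genes had a median of 3 (11 genes), with 9 at Fat2, 5 each at Crb1, Crb2 and Scrib, and none at Fat3 and Fjx1. Among other YAP target genes the median was 5 (12 genes), with 18 at Birc5, a regulator of cell division and survival, and 13 at Nuak2. The other CCN genes had 2 to 5 peaks, with 5 at Ccn6 and 3 at Ccn5, a range that includes Ccn1 and Ccn2.

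**Figure D4:**
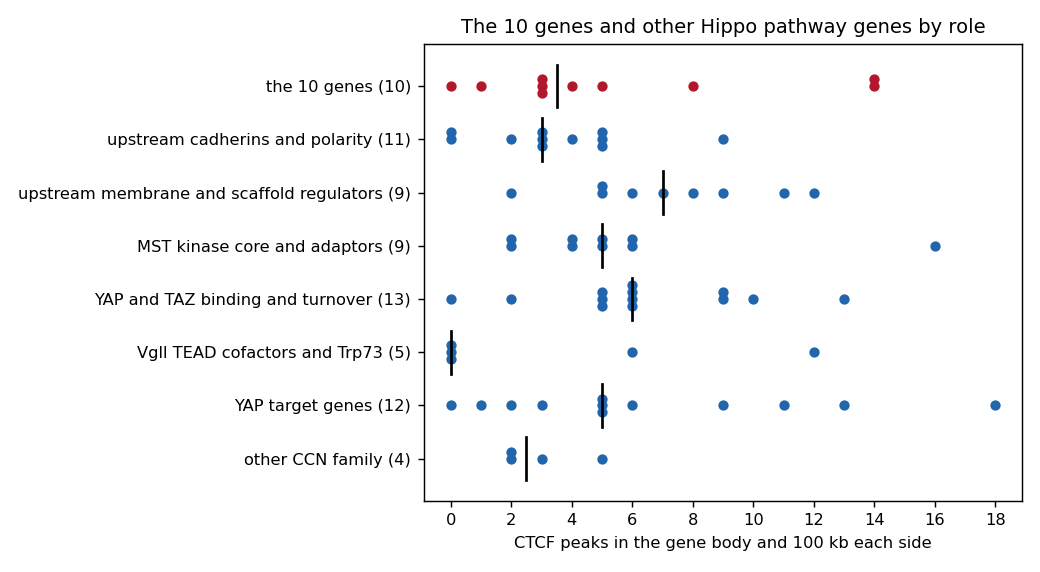
CTCF peaks in the body and 100 kb each side for the 10 members (red) and 63 other pathway genes by role (blue), 1 point per gene. Black lines are medians and numbers in brackets are genes. The members range from 0 to 14 around a median of 3.5, within the 0 to 18 of the other genes.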

How the data were processed

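The analysis used 1 deposited list of CTCF peak intervals in 3 columns (chromosome, start, end), positions without score or height that the authors had merged over both conditions. Per the submitters' processing notes, the tools were STAR, Picard and MACS2 and the builds mm10 and dm6. For the roles and versions of these tools, thresholds, duplicates and the Drosophila spike-in, nothing is given in the sources used here. Depth per sample is unknown.

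Starts were converted to count from 1. Genes came from RefSeq for GRCm38.p6 on chromosomes 1 to 19, X and Y, without 340 genes placed below 3 Mb on chromosomes other than Y. A peak was counted by its midpoint, in the body or within 100 kb, and at an end when within 1 kb. Strand was known only for genes in the RefSeq promoter table. Percentages over all protein-coding genes are backgrounds, not tests. Counting was tested on simulated peaks. Python 3.11.15, pandas 2.3.3 and numpy 2.4.6 were used.

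Members and lists were chosen with earlier results of these data known. Named genes were all members, their nearest coding neighbours, genes holding a described peak or ending within 1 kb of it, and the 2 pathway genes per role with most peaks (ties by symbol). Stk3, Stk4, Sav1, Mob1a, Mob1b, Stk38l, Stk25, Crb2, Scrib, Fat3, Fjx1 and Vgll1 to Vgll3 were named after their values were seen.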

Additional observations from a re-analysis of the deposited data

How the results depend on the processing

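No paired analysis was possible because no interval is tied to a sample or replicate, and no library could be left out for the same reason. Counting peaks by any overlap kept the 55 peaks, and merging peaks within 500 bp gave 53. With flanks of 50 kb the members had 38 peaks and with 10 kb 14, and the share at Tead2 and Tead3 fell from 50.9% to 36.8% and 28.6%. Peaks of at least median width numbered 30; Tead3 then had 10, Tead2 had 7, and Yap1 and Ccn1 had 0. With gene ends taken within 500 bp, 0 members had a peak at an end in place of Tead4 alone, and within 2.5 kb 1 did. The members with a body peak numbered 3 with wide peaks and 4 otherwise. The span between the nearest outside peaks is longer with wide peaks only, by construction: 526 kb for Ccn1, 309 kb for Ccn2 and 36.1 kb for Tead3.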
